A study of Mus musculus with 6 samples.

Results

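The kidney that had been treated early with vesicles was set against the kidney that had been treated late, as the UMIs (unique molecular identifiers, each standing for 1 captured RNA molecule) of all spots of each section summed per library. These are 2 of the series' 6 libraries, with 1 library per side, and they were chosen by their titles. Of all genes listed, 6474 reached 20 scaled CPM in 1 of the 2 libraries. Scaled CPM are UMIs relative to the library total, as CPM, after scaling by trimmed means of M values (TMM), and every level below is on this scale. Where a pair of levels is joined by against, the early treated one comes first. Rubcn, at 19.99 in the early and 19.99 in the late treated library, lay just outside that floor, and Ggps1, at 20.02 against 19.7, just inside it.

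The early treated library was titled Early treated 5m AS and the late treated library Late treated 5m AS. Both came from kidney of mice with the genotype B6.Cg-Col4a5tm1Yseg, an X-linked model of Alport syndrome, at an age of 5 months, and both carried the treatment label hEV treatment. The start, dose, number and route of the treatments, and the number of mice behind a section, are not stated in any source used. Both sides of the comparison therefore carried the Col4a5 allele and the vesicle treatment, and they differed by the label early or late. Kidneys were frozen in OCT and cut as 10 um cryosections onto Visium slides, on which each spot captures poly(A) RNA from several cells. Untreated kidneys of the same genotype at 5 months (5m AS) and at 2 months (2m AS), a wild-type B6C57 kidney (WT) and a mixed library of wild-type and heterozygous females are given only as levels beside the treated ones. The 5m AS and WT counts came from Space Ranger 1.2.1 and the other 4, including both treated libraries, from 1.3.1.

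Alport syndrome arises from faults in the type IV collagen network of the glomerular basement membrane, and kidneys with it go on to tubular injury, inflammation and fibrosis. Injured proximal tubule cells lose transporters and switch on genes such as Havcr1 and Lcn2, and they release chemokines that draw in leukocytes. Cells that fold more protein than their endoplasmic reticulum can handle raise its chaperones, a programme known as the unfolded protein response, and cytosolic heat shock chaperones answer misfolded protein outside it.

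The early treated library held 3549 spots with a median of 12736 UMIs per spot and the late treated library 2892 spots with a median of 18187. Their totals were 48940875 and 57325650 UMIs. The share of mitochondrially encoded UMIs was 6.003% in the early and 8.32% in the late treated library. Of the slide's fixed spot barcodes, 2170 occurred in both libraries, as the barcode set is the same on every slide and does not mark shared tissue. Col4a5 (chrX:141475385-141689234, plus strand, GRCm38), the gene carrying the targeted allele, stood at 5.52 in the early and 5.57 in the late treated library, beside 3.39 in 5m AS, 6.54 in 2m AS, 11.9 in WT and 13.2 in the mixed library. Capture at the poly(A) tail does not read the mutated site, so this level does not check the allele. Of the kidney marker lists, 13 of 13 podocyte, 12 of 12 early proximal tubule and 11 of 12 thick ascending limb genes reached 5 scaled CPM in 1 of the 2 libraries. By contrast, 2 of 10 inner medulla and urothelium genes and none of 5 neutrophil genes did. The 4 Y-linked genes measured were within 1.5-fold, and Xist was at 0.0347 against 0.164.

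Of the 6474 genes, 61 (0.942%) were at least 2-fold higher in the early treated library and 21 (0.324%) at least 2-fold lower. Hsp90b1, at 2.002-fold, was the last gene inside the 2-fold line on the higher side, and Trim47, at 1.97-fold, the first outside it. At 1.5-fold the counts were 217 (3.35%) and 120 (1.85%). With a lower floor of 5 scaled CPM, which gives 10858 genes, 0.958% were 2-fold higher and 0.359% 2-fold lower. The median log2 ratio of early over late over all 6474 genes was 0.02, and 94.8% of the genes lay within 1.5-fold. Among the 15 possible pairs of libraries, this pair had the fewest 2-fold genes, at 82. The next was 2m AS against WT, with 159, and the most were found between 5m AS and 2m AS, with 949. With 1 library per side there is no replicate and no test. Intervals given after a ratio are 95% exact intervals that cover counting error only, not the spread between mice or sections. Values called within regions are log2 ratios taken in each of 10 regions of like spots, described at the end, with 1 scaled CPM added, which understates the ratio of low genes, and averaged over the regions. Ratios over whole sections carry no such addition. The regions were formed from the genes' own levels, which can lower the ratio of a gene that helps to define a region. The average weights each region by its spots from both sections together, also where 1 section gave as few as 26. In summed sections, fewer cells of a type and less RNA per cell cannot be told apart.

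**Figure D1:**
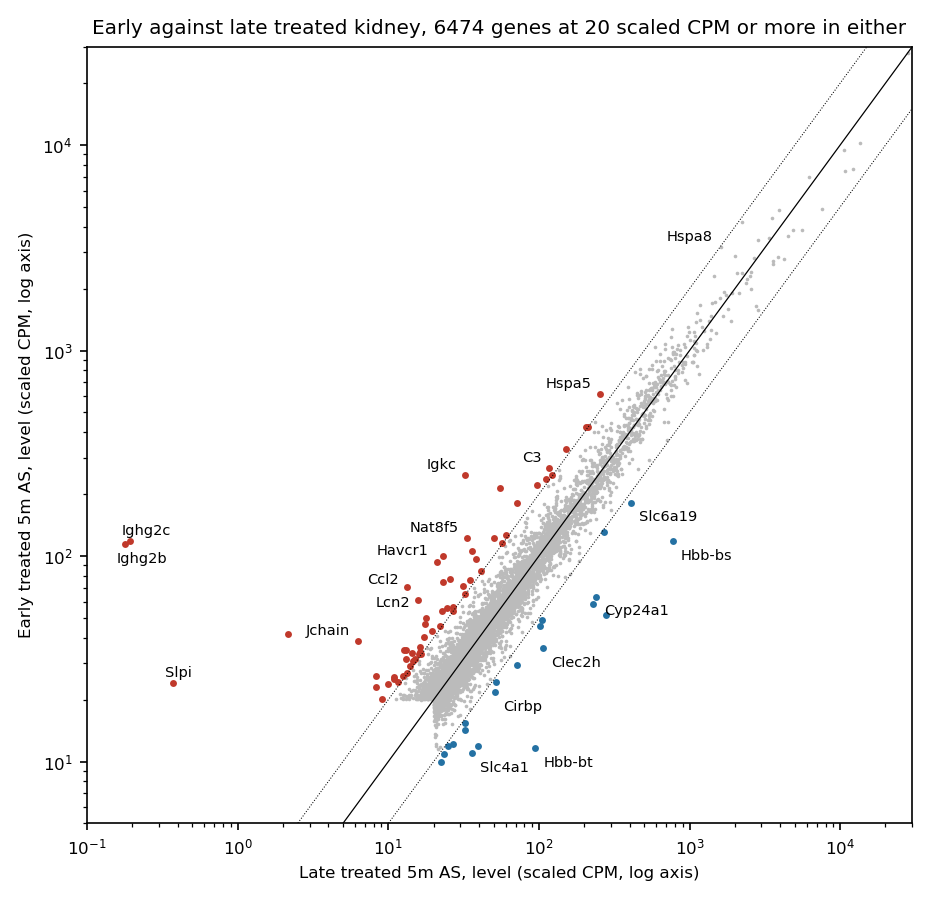
Level of 6474 genes in the late (x axis) and early (y axis) treated library, in scaled CPM on log axes, with 1 point per gene. The solid line marks equal levels and the dotted lines 2-fold; the 61 red genes lie above them and the 21 blue genes below, led by Ighg2b, Ighg2c and Slpi above and by Hbb-bt and Hbb-bs below.

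The protein-folding genes stood higher in the early treated kidney across nearly all of the section. In the unfolded protein response list, 9 of the 15 members measured of 17 were at least 1.5-fold higher and none lower, against 3.7% higher and 2.02% lower of the 10858 genes at the same floor of 5 scaled CPM. These shares over all genes stand beside every list count below. The list's median log2 ratio was 0.81, beside 0.02 over the 6474 genes. Hspa5 encodes BiP, the main chaperone of the endoplasmic reticulum. It stood at 614 in the early and 254 in the late treated library, a ratio of 2.41-fold (2.37 to 2.46). The early level lay between WT, at 449, and 5m AS, at 794, while the late level lay near 2m AS, at 209. Sdf2l1 and Creld2, partners of endoplasmic reticulum chaperones, had the largest ratios of the list. Sdf2l1 stood at 26.01 against 8.30 (3.13-fold, 2.84 to 3.46). Creld2 stood at 77.4 against 25.7 (3.01-fold, 2.85 to 3.18), beside 109 in 5m AS, 28.6 in 2m AS, 63.1 in WT and 60.6 in the mixed library. Manf, a secreted stress-induced factor, stood at 181 against 71.3 (2.54-fold, 2.45 to 2.63). Hsp90b1, the endoplasmic reticulum member of the Hsp90 family, was 2.002-fold (1.96 to 2.04) higher. Xbp1, the transcription factor that drives chaperone genes once its RNA is spliced, was 1.81-fold (1.75 to 1.88) higher, a total of both splice forms. Atf4 and Ddit3, which act in the PERK branch, were 1.31-fold and 1.57-fold higher. Dnajb9, a co-chaperone of BiP, did not share the difference, at 63.004 against 62.5.

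The stretches before the start of 3 of these genes are shown as those that hold the motif described next and were also at least 2-fold higher, a choice made after their values were seen. The endoplasmic reticulum stress element was searched on both strands as CCAAT, any 9 bases and CCACG in the 300 bases around each gene's start in RefSeq (GRCm38.p6). It occurred in 5 of the 15 list members that have an entry (33.3%: Calr, Creld2, Hsp90b1, Hspa5 and Pdia6), against 37 of 27025 genes (0.137%). The 250 bases before the start are printed 5′ to 3′ on the gene's strand, with the match in capitals, which read CGTGG first where it lies on the other strand. Hspa5 is at chr2:34771840-34772089 (plus strand), Creld2 at chr15:88819396-88819645 (plus strand) and Hsp90b1 at chr10:86705445-86705694 (minus strand).
Hspa5: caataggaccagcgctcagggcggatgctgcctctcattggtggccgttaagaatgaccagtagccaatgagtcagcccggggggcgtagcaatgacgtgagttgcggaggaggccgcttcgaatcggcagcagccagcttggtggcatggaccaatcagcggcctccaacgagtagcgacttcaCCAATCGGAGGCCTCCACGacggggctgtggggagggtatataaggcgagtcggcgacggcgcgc
Creld2: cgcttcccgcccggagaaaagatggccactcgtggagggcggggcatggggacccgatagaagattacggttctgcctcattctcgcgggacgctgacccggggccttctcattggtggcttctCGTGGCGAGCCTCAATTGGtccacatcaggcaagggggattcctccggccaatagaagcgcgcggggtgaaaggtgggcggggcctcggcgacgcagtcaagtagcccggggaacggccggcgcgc
Hsp90b1: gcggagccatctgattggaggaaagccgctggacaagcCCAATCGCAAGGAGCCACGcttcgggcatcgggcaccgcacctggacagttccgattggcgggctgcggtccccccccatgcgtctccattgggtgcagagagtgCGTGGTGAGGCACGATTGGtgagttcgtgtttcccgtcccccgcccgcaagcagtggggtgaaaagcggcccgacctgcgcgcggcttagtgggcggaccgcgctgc
The match ends 47 bases before the start in Hspa5 and 108 in Creld2, and Hsp90b1 holds 2 matches. A match is a description of the letters and not a shown binding site. Of the 5 genes with a match, Creld2, Hspa5 and Hsp90b1 were at least 2-fold higher in the early treated library, Pdia6 was 1.90-fold and Calr 1.37-fold higher. Sdf2l1 and Manf, with ratios of 3.13-fold and 2.54-fold, are not among the members with a match.

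Heat shock chaperones showed the same pattern. Of the 11 members, all measured, 9 were at least 1.5-fold higher in the early treated library and none lower, with a median log2 ratio of 0.97. Hspb1, a small heat shock protein that binds unfolded protein and actin, stood at 100.2 in the early and 23.2 in the late treated library, a ratio of 4.32-fold (4.09 to 4.58). The inducible Hsp70 genes Hspa1a and Hspa1b are near-identical, so reads may be split between them. Hspa1b stood at 34.7 against 12.6 (2.75-fold, 2.54 to 2.98) and Hspa1a at 25.4 against 10.9 (2.32-fold, 2.12 to 2.54). The Hspb1 log2 ratio was 2.11 over whole sections and 1.502 within regions. Both treated levels of Hspa1b lay far under 5m AS, at 286, and under WT, at 114. The constitutive Hsp70 gene Hspa8 stood at 3189 against 1626 (1.96-fold, 1.95 to 1.98). Hsp90aa1, the inducible cytosolic Hsp90, stood at 425 against 204 (2.08-fold, 2.04 to 2.12), and Hsph1, an Hsp70 exchange factor, at 126 against 60.1 (2.10-fold, 2.02 to 2.19). The members under 1.5-fold were Hspd1, the mitochondrial chaperonin, at 421 against 400.4, and Bag3, at 32.3 against 25.9. Summed over the list, the level was 5784 against 3271. The late treated sum was the lowest of the 6 libraries, the next being 2m AS at 4031, and 5m AS and WT stood at 6449 and 6477.

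Hspe1, the partner of Hspd1 in the mitochondrial chaperonin, lies head to head with it, so that both share 1 stretch between their starts. The 250 bases before the start of Hspe1, which include that stretch, are shown because the genes on its sides had unequal ratios. The shared stretch holds the heat shock element, searched on both strands as GAA, any 2 bases, TTC, any 2 bases and GAA. The capitals mark 2 overlapping matches. The bases printed are chr1:55087898-55088147 of GRCm38.p6 on the plus strand, and the first of them lie past the start of Hspd1.
Hspe1: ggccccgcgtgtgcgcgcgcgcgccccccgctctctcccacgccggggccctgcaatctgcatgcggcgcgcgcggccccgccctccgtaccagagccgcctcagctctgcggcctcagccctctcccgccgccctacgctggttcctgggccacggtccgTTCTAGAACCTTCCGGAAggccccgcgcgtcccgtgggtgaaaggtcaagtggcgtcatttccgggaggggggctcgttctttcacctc
The element occurred in 3 of the 8 heat shock members with an entry (37.5%: Hspd1, Hspe1 and Hsph1), against 179 of 27025 genes (0.662%). The matches of Hspd1 and Hspe1 are the same bases, counted for both genes. Hspe1 stood at 554 in the early and 331 in the late treated library (1.67-fold, 1.64 to 1.70), while Hspd1 was 1.05-fold (1.03 to 1.07) higher.

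Fkbp5 and Cirbp were among the genes with the largest ratio on their side. Fkbp5, a glucocorticoid-induced co-chaperone of Hsp90, stood at 106 in the early and 36.02 in the late treated library, a ratio of 2.95-fold (2.81 to 3.09), and its early level was the highest of the 6 libraries. Cirbp, a cold-inducible RNA-binding protein, ran the other way. It stood at 21.8 against 50.8, 2.33-fold (2.19 to 2.49) higher in the late treated library, and its early level was near that of 5m AS, at 23.9.

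The spread over spots showed that the differences in summed chaperone level were carried by the whole section and not by a few spots. Every spot was thinned to 5000 UMIs for shares and pairs, which left out 626 of 3549 early and 239 of 2892 late treated spots that were shallower. With ties split evenly, in 94.6% of all pairs of an early and a late treated spot the summed heat shock level was higher in the early one. For the unfolded protein response the share was 89.4%. For single genes the median share over the 6474 genes was 50.2%, and 95% of the genes lay between 43.5% and 57.4%. The share was 91.7% for Hspa8, the highest of all genes, and 81.9% for Hspa5. Hspa8 also made up the largest part of the heat shock sum. Hspb1, among the genes that lead region 1, was less even. Its early treated level was 266 in region 1 and 201 in region 8, against 39.1 in region 7. It was higher in the early treated section in all 10 regions. The middle 50% of spots ran from 413 to 773 for Hspa5 in the early and from 165 to 333 in the late treated library, so these ranges did not overlap. Spots are not replicates, and the spread describes these 2 sections.

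**Figure D2:**
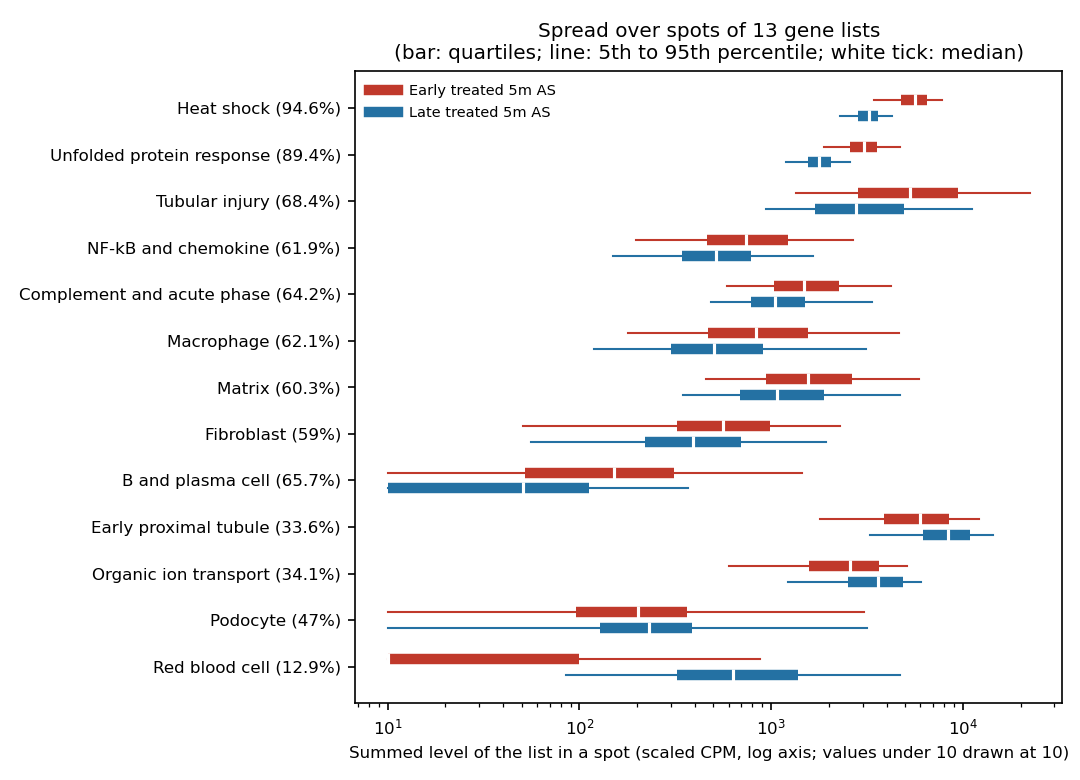
Summed level of 13 gene lists in single spots (x axis, scaled CPM, log axis), with the quartiles as a bar, the 5th to 95th percentile as a line and the median as a white tick, for the early (red) and late (blue) treated library. The percent beside each list is the share of pairs of an early and a late treated spot, thinned to 5000 UMIs, in which the early one was higher; it is highest for heat shock, at 94.6%, and lowest for red blood cell genes, at 12.9%.

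Markers of tubular injury were the next group, and they too stood higher in the early treated kidney. All 21 members of the list were measured, 18 were at least 1.5-fold higher and none lower, and the median log2 ratio was 0.91. Havcr1 (chr11:46735080-46779578, plus strand, GRCm38) encodes KIM-1, a phagocytic receptor of injured proximal tubule. It stood at 93.99 in the early and 21.1 in the late treated library, a ratio of 4.45-fold (4.20 to 4.72), beside 152 in 5m AS, 9.02 in 2m AS, 0.395 in WT and 0.703 in the mixed library. Both treated levels therefore lay between those of the untreated kidneys at 2 and at 5 months. Lcn2 (chr2:32384633-32388252, minus strand), an iron-trapping protein released by injured distal and proximal tubule, stood at 60.9 against 15.8 (3.84-fold, 3.59 to 4.12), beside 129 in 5m AS and 0.512 in WT. Krt20, a keratin of injured tubule, had the largest ratio of the list at low levels, 8.97 against 1.07 (8.36-fold, 6.52 to 10.9). Cd44, a hyaluronan receptor, stood at 23.1 against 8.26 (2.80-fold, 2.53 to 3.10). Vcam1, an adhesion receptor displayed by tubule cells that fail to recover, stood at 123 against 50.2 (2.45-fold, 2.35 to 2.55). Spp1, which encodes osteopontin, stood at 4229.9 against 2225 (1.90-fold, 1.89 to 1.91), and Clu at 1042 against 594 (1.75-fold, 1.73 to 1.78). Members under 1.5-fold included Cdkn1a, a cell cycle inhibitor, at 1.14-fold, and Anxa1, at 1.48-fold.

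Injury genes were patchier than the chaperones. After thinning, 25.2% of early and 8.41% of late treated spots held a Havcr1 UMI, and 42.04% and 22.2% of all spots did before thinning. The 5% of spots with the most Havcr1 held 51.7% of its UMIs in the early and 55.05% in the late treated library, while for Hspa5 these shares were 5.76% and 5.30%. The summed injury list was higher in the early spot in 68.4% of pairs, with a median per spot of 5303 against 2759. The distributions of the 2 sections overlapped widely. Within regions the ratios were smaller. Havcr1 and Lcn2 are among the genes that lead region 1, and sorting spots on a gene can lower its ratio within regions. The Havcr1 log2 ratio was 2.15 over whole sections and 0.96 within regions, and it was -1.48 in region 6, which held 26 late treated spots. For Krt20 it went from 3.06 to 1.1999, for Cd44 from 1.49 to 0.63 and for Lcn2 from 1.94 to 1.36. Only the values within regions carry the added 1 scaled CPM, which by itself lowers the ratio of a low gene such as Krt20.

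**Figure D3:**
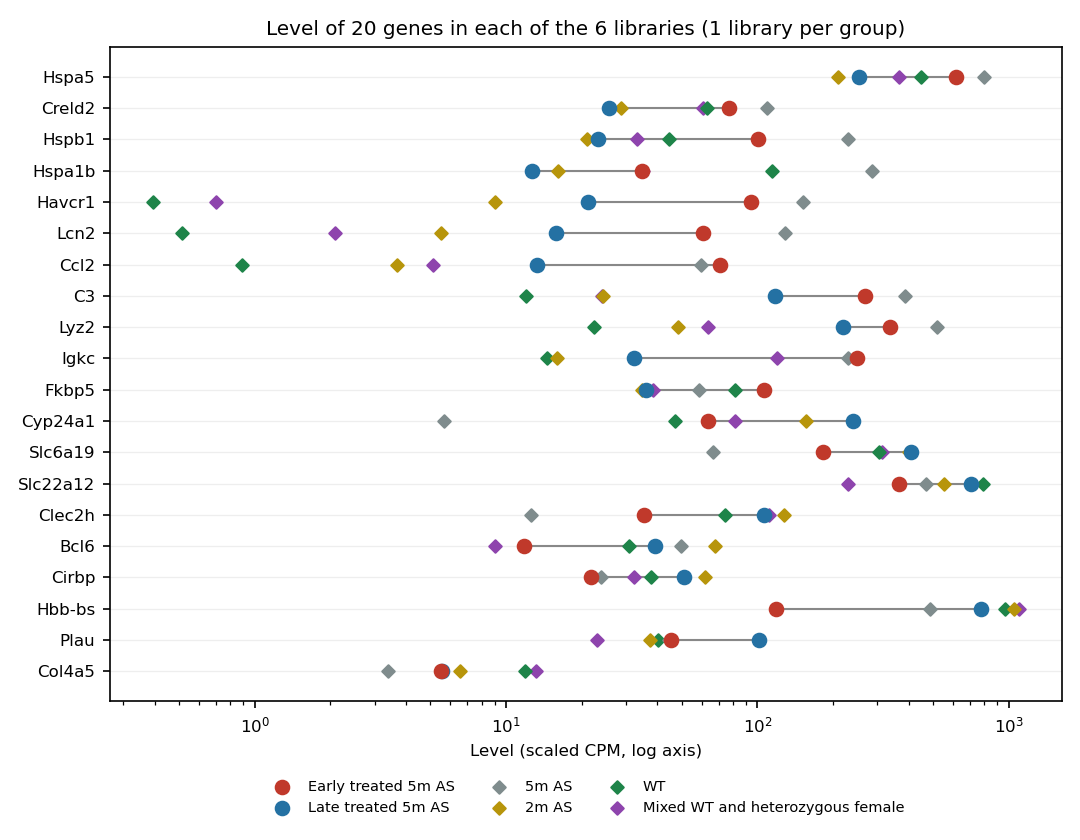
Level of 20 genes (rows) in each of the 6 libraries, in scaled CPM on a log axis, with the treated libraries as large circles joined by a line and the other 4 as diamonds. The early treated circle lies to the right for Hspa5 to Fkbp5 and the late treated circle for Cyp24a1 to Plau, while the circles of Col4a5 overlap.

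Chemokines and their upstream NF-kB genes were higher in the early treated library in 10 of 18 measured members of 20, and none was 1.5-fold lower, with a median log2 ratio of 0.69. Ccl2 draws in monocytes. It stood at 71.1 in the early and 13.2 in the late treated library, a ratio of 5.36-fold (4.99 to 5.77), above the 59.5 of 5m AS. Its neighbour Ccl7, which uses the same receptor, stood at 12.3 against 2.32 (5.31-fold, 4.46 to 6.35). The neutrophil chemokine Cxcl1 stood at 14.97 against 4.46 (3.36-fold, 2.94 to 3.85), and Cxcl10, induced by interferon, at 45.8 against 21.9 (2.09-fold, 1.96 to 2.23). Ccl5, a T cell chemokine, stood at 46.6 against 17.5 (2.67-fold, 2.49 to 2.86). Within regions the list's median was 0.22, and Ccl2, Ccl5 and Cxcl10 are also among the genes that lead region 1. The Ccl2 log2 ratio went from 2.42 over whole sections to 1.38 within regions, with -1.30 in region 6, that of Ccl7 from 2.41 to 1.33, that of Cxcl1 from 1.75 to 0.90, that of Cxcl10 from 1.06 to 0.41 and that of Ccl5 from 1.41 to 0.68. Cxcl12 was slightly lower in the early treated library, at 108 against 130.2. The interferon response list did not follow the chemokines, with 0 of 18 measured members 1.5-fold higher, 1 lower and a median of -0.25. Its 1 lower member was Iigp1, an interferon-induced GTPase, at 11.8 against 24.8 (2.10-fold, 1.92 to 2.30 higher in the late treated library).

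Complement and acute phase genes were at least 1.5-fold higher in 9 of 15 measured members of 17, and none was lower. C3, the central complement component, stood at 267 in the early and 118 in the late treated library, a ratio of 2.27-fold (2.21 to 2.33), beside 387 in 5m AS and 12.04 in WT. The fibrinogen chain gene Fgg stood at 71.5 against 31.2 (2.29-fold, 2.17 to 2.41) and Fga at 57.2 against 30.7 (1.86-fold, 1.76 to 1.97). Cfb and C2 lay within 1.2-fold. The median of the list was 0.65 over whole sections and 0.04 within regions. The log2 ratio went from 1.18 to 0.44 for C3, from 1.19 to 0.37 for Fgg and from 0.90 to -0.08 for Fga.

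Macrophage and class II genes had smaller medians than the chemokine list. Of the 14 macrophage genes, all measured, 3 were at least 1.5-fold higher in the early treated library and none lower, with a median of 0.40. The 3 were Cd14, at 17.7 in the early and 9.45 in the late treated library (1.87-fold, 1.69 to 2.07), Lyz2, which encodes lysozyme, at 337 against 219.6 (1.54-fold, 1.505 to 1.57), and Tyrobp, an adaptor of myeloid receptors, at 79.5 against 52.1 (1.53-fold, 1.46 to 1.60). The defining macrophage markers Adgre1, Csf1r and Cd68 stood at 13.8 against 13.3, at 35.2 against 35.4 and at 12.7 against 12.2. The summed macrophage level was 979 against 705, beside 1613 in 5m AS and 211 in WT. The 7 class II antigen presentation genes had a median of 0.31 over whole sections and -0.06 within regions, with none past 1.5-fold. Of the T and NK cell list, only 3 of 10 genes reached the floor, all at least 1.5-fold higher; Cd3e and Cd8a, among the 7 others, stood at 2.10 against 1.91 and at 2.79 against 2.73.

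Genes of secreted antibody had some of the largest ratios on the early treated side. Jchain joins the chains of secreted IgA and IgM. It stood at 38.6 in the early and 6.32 in the late treated library, a ratio of 6.12-fold (5.51 to 6.80). Igkc, the kappa light chain, stood at 248 against 32.3 (7.67-fold, 7.33 to 8.03), and Igha, the IgA heavy chain, at 214 against 54.99 (3.90-fold, 3.76 to 4.04). Ighg2b and Ighg2c, IgG heavy chains named here after their values were seen, stood at 114 and 118 in the early and at 0.179 and 0.194 in the late treated library. These near-identical genes may share reads. In the late treated library they had 12 and 13 UMIs, and in 5m AS they stood at 10.2 and 23.3. Ighm, the IgM heavy chain, differed by 1.19-fold only. The B cell genes Cd79a, Cd79b and Ms4a1 were under 2 scaled CPM in both libraries. The UMIs were concentrated, with 69.3% of the early treated Igkc UMIs in 5% of spots. Within regions the log2 ratio was 1.66 for Igkc, 1.44 for Jchain and 0.97 for Igha, against 2.94, 2.61 and 1.96 over whole sections.

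Slpi (chr2:164354070-164389095, minus strand, GRCm38), a secreted inhibitor of leukocyte proteases, had the largest ratio outside the antibody genes. It stood at 23.997 in the early treated library (1383 UMIs) and at 0.373 in the late (25 UMIs), a ratio of 64.4-fold (43.4 to 99.9). Its log2 ratio was 6.01 over whole sections and 3.33 within regions. Every other library was low, with 2.65 in 5m AS, 0.380 in 2m AS, 0.351 in WT and 1.99 in the mixed library. In the early treated section, 81.3% of its UMIs came from 5% of spots, and 5.37% of thinned spots held a UMI against 0.264% in the late treated section (11.98% and 0.830% before thinning). Nat8f5, an N-acetyltransferase family gene of the proximal tubule, was spread more evenly. It stood at 122 in the early and 33.2 in the late treated library, a ratio of 3.67-fold (3.50 to 3.85), with 25.99 in 5m AS and 90.2 in WT, and 15.2% of its early treated UMIs lay in the top 5% of spots.

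Genes of the fibrotic matrix showed a smaller difference. Of 20 measured matrix genes of 24, 7 were at least 1.5-fold higher in the early treated library and none lower, and the median was 0.46. Timp1, an inhibitor of matrix metalloproteinases, stood at 49.96 in the early and 17.7 in the late treated library, a ratio of 2.81-fold (2.63 to 3.01), beside 84.5 in 5m AS and 0.980 in WT, and its log2 ratio went from 1.49 to 0.70 within regions. Ltbp2, of the latent TGF-beta binding protein family, stood at 33.2 against 15.99 (2.08-fold, 1.93 to 2.24). Ccn2, a TGF-beta and Yap target, stood at 245 against 138 (1.78-fold, 1.73 to 1.82). Tgfb1 itself stood at 16.8 against 18.2. Among fibroblast genes, 1 of 8 measured of 10 was at least 1.5-fold higher, beside 3.7% of all genes. That gene was the fibrillar collagen Col3a1, at 179 against 108 (1.65-fold, 1.60 to 1.70), while Col1a1 stood at 124 against 117 (1.07-fold, 1.03 to 1.10). Plau, which encodes urokinase, a protease that activates plasminogen, ran the other way at 45.4 against 101, 2.23-fold (2.14 to 2.34) higher in the late treated library, whose level was the highest of the 6.

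Among genes of basement membranes, type IV collagens included, 0 of 14 measured members of 15 passed 1.5-fold, with a median of -0.02. At the same floor 94.3% of all genes lay within 1.5-fold, so counts of 0 or 1 in the lists here are near that share. Col4a3 and Col4a4, whose products pair with the product of Col4a5, stood at 74.5 and 88.9 in the early and at 75.3 and 105 in the late treated library. The ubiquitous chains Col4a1 and Col4a2 were 1.16-fold and 1.08-fold higher in the early treated library. Podocyte genes likewise showed 0 of 13 members past 1.5-fold and a median of 0.06. Nphs1, which encodes nephrin of the slit diaphragm, stood at 24.9 in the early and 20.1 in the late treated library (1.24-fold, 1.15 to 1.33 higher in the early). The 12 endothelial genes were all within 1.5-fold. Vegfa, the podocyte and tubule factor for endothelium, stood at 108 against 133, and its receptors Flt1 and Kdr were within 1.1-fold. Of 10 measured VEGF and angiopoietin genes of 13, 1 was at least 1.5-fold higher. That gene was Angpt2, a Tie2 ligand of vessel remodelling, at 5.33 against 3.46 (1.54-fold, 1.29 to 1.84).

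Transport genes of the proximal tubule stood lower in the early treated kidney. Of the early proximal tubule list, 0 of 12 members were 1.5-fold higher and 4 lower, with a median of -0.36. For late proximal tubule genes the counts were 0 and 2 of 8 measured of 12, and the median -0.30. Within regions the late proximal tubule median was -0.20, from -0.63 in region 3 to 0.08 in region 1. It was 0.02 in region 7, whose leading genes include Slc7a13. Slc22a7, the list's largest ratio, was lower over whole sections but higher in 4 of the 10 regions. Slc6a19, the apical transporter of neutral amino acids, stood at 182 in the early and 407 in the late treated library, 2.24-fold (2.19 to 2.29) higher in the late treated library, beside 66.4 in 5m AS, 401 in 2m AS, 303 in WT and 312 in the mixed library. Slc22a12, the urate exchanger URAT1, stood at 366 against 710.1 (1.94-fold, 1.91 to 1.97). The basolateral glucose carrier Slc2a2 stood at 95.8 against 159 (1.66-fold, 1.61 to 1.72). Gatm, the first enzyme of creatine synthesis, stood at 449 against 718 (1.60-fold, 1.58 to 1.62). Slc7a8, a basolateral amino acid exchanger, stood at 55.7 against 86.7 (1.56-fold, 1.49 to 1.63). Slco1a1 and Abcc2, carriers of organic anions, were 1.67-fold and 1.56-fold higher in the late treated library. By contrast the glucose cotransporter Slc5a2 lay at 360.5 against 405, within 1.2-fold. Counted by function, 3 of 11 measured amino acid transporters, 4 of 14 organic ion transporters and 3 of 10 glucose, lactate and phosphate transporters were at least 1.5-fold lower in the early treated library and none was higher. These lists share members, Slc6a19 among them. Clec2h, a C-type lectin gene, stood at 35.5 against 106 (2.99-fold, 2.84 to 3.14 higher in the late treated library), and the cytochrome gene Cyp2d9 at 48.9 against 105 (2.15-fold, 2.06 to 2.24).

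Cyp24a1 (chr2:170482708-170497145, minus strand, GRCm38) encodes the mitochondrial hydroxylase that inactivates vitamin D. It had the largest ratio on the late treated side outside the haemoglobin genes. Its level was 63.4 in the early and 239 in the late treated library, 3.77-fold (3.64 to 3.91) higher in the late treated library, beside 5.65 in 5m AS, 156 in 2m AS, 47.1 in WT and 81.4 in the mixed library. The late treated level was thus the highest of the 6 libraries and the untreated 5m AS level the lowest. After thinning, 28.5% of early and 69.2% of late treated spots held a Cyp24a1 UMI (48.9% and 90.2% before thinning), and the early spot was higher in 25.99% of pairs. Vdr, the vitamin D receptor, which activates Cyp24a1, stood at 109 against 164 (1.51-fold, 1.46 to 1.56). Cyp27b1, which makes the active hormone, stood at 11.1 against 11.9, a ratio whose interval includes 1. Kl, the Fgf23 co-receptor, stood at 371 against 471. S100g, a calcium-binding target of the vitamin D receptor in the distal nephron, lay the other way, at 3438 against 2833. Of the 9 measured members of this axis of 10, 0 were 1.5-fold higher and 2 lower.

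Distal nephron markers were largely within 1.5-fold, as were 94.3% of all genes at the floor of 5 scaled CPM. No distal convoluted tubule gene of 10 passed 1.5-fold, and 1 of 11 measured thick ascending limb genes was lower. Of 9 measured principal cell genes of 11, 2 were at least 1.5-fold higher in the early treated library: the water channel Aqp2, at 261 in the early and 137 in the late treated library (1.91-fold, 1.86 to 1.96), and the sodium channel subunit Scnn1g, at 45.3 against 28.7 (1.58-fold, 1.49 to 1.68). Of 10 intercalated cell genes, 2 were lower. Aqp6, a channel of intracellular vesicles in acid-secreting cells, stood at 29.6 against 71.3 (2.41-fold, 2.28 to 2.55 higher in the late treated library), whose level was the highest of the 6. Slc4a1, the chloride-bicarbonate exchanger of those cells and of red blood cells, stood at 10.98 against 35.9 (3.27-fold, 2.99 to 3.57). Other intercalated cell genes, such as the V-ATPase subunit Atp6v1g3 (166 against 139) and Slc26a4 (47.9 against 50.97), were within 1.5-fold.

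Red blood cell genes were all lower in the early treated library, 5 of 5, with a median of -2.69 over whole sections and -1.84 within regions. Hbb-bs stood at 118 in the early and 772 in the late treated library, 6.52-fold (6.35 to 6.68) higher in the late treated library, and the list's sum was 241 against 1378. The other libraries ran from 857 in 5m AS to 1766 in 2m AS, so the early treated section stood apart with the lowest sum. Alas2, the erythroid haem enzyme, stood at 0.937 against 6.07. Slc4a1 was lower in the early treated section in all 10 regions, with log2 ratios from -2.16 to -0.53. The red blood cell median was 0.17 and 0.16 in regions 4 and 7, which held only 30 and 37 early treated spots, rich in haemoglobin RNA. The part of haemoglobin RNA in the Slc4a1 difference was not tested. Mitochondrially encoded genes were at least 1.5-fold lower in 4 of 12 measured members of 13, led by mt-Nd3 at 1572 against 2838 (1.80-fold, 1.79 to 1.82 higher in the late treated library), with a median of -0.48. Nuclear genes of oxidative phosphorylation did not share this, as 0 of 24 passed 1.5-fold and their median was 0.00. The part of mitochondrial RNA share and depth in the transporter differences was not tested; leaving the mitochondrial genes out of the scaling gave 62 genes higher and 21 lower at 2-fold.

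Spots of both sections were clustered together into 10 regions so that like spots could be compared. Region 1 was led by Havcr1, Ccl2 and Aoc1, region 2 by Ighg2b, Ighg2c and Igkc, region 3 by Klk1 and Slc26a4, region 4 by Clec2h and Cyp24a1, and region 5 by Pvalb and Slc12a3. Region 6 was led by Nat8f5 and Cyp2a4, region 7 by Cyp2d9 and Slc7a13, region 8 by Cdkn1c and Nphs1, region 9 by Slc12a1 and Umod, and region 10 by Myh11 and Acta2. Regions 2 and 6 held mostly early and regions 4 and 7 mostly late treated spots, with as few as 26 spots of the smaller side. These 4 may therefore be a library and not a kind of tissue, and region sizes are not compared because the genes that define them differ between the sections. Regions 3, 5 and 8 held 373 and 411, 328 and 328, and 283 and 216 spots of the early and late treated section.

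Within regions, the chaperone lists stayed higher in the early treated section. The median log2 ratio of the unfolded protein response list ran from 0.62 to 0.80 over the 10 regions and that of the heat shock list from 0.65 to 0.995. For Hspa5 the log2 ratio, with 1 scaled CPM added, ran from 1.05 in region 6 to 1.38 in region 4. The region 8 spots, which carry the glomerular genes, gave 1.24, and the distal regions 3 and 5 gave 1.11 and 1.23. Cyp24a1, which helps to define region 4, was lower in the early treated section in all 10 regions, from -2.28 to -1.58, and Fkbp5 higher in all 10. The medians of haemoglobin and mitochondrial genes varied between regions. In regions 4 and 7, with 30 and 37 early treated spots, the red blood cell median was 0.17 and 0.16 and the mitochondrial median -0.06 and -0.14. In regions 2 and 6 the mitochondrial median was 0.06 and 0.02, while the red blood cell median was -1.80 and -1.84. The few early treated spots of regions 4 and 7 were rich in haemoglobin RNA, with Hbb-bs at 558 and 409, against 112 in region 1. As regions were formed from the genes' own levels, these medians do not decide what part haemoglobin or mitochondrial RNA had in other differences. Injury genes varied more than chaperones. Their median ran from 0.08 in region 4 and 0.36 in region 6 to 0.79 in region 7. It was 0.67 in region 3, 0.59 in region 5, 0.73 in region 8 and 0.39 in region 9, and 0.50 over all regions weighted by their pooled share of spots, against 0.91 over whole sections.

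**Figure D4:**
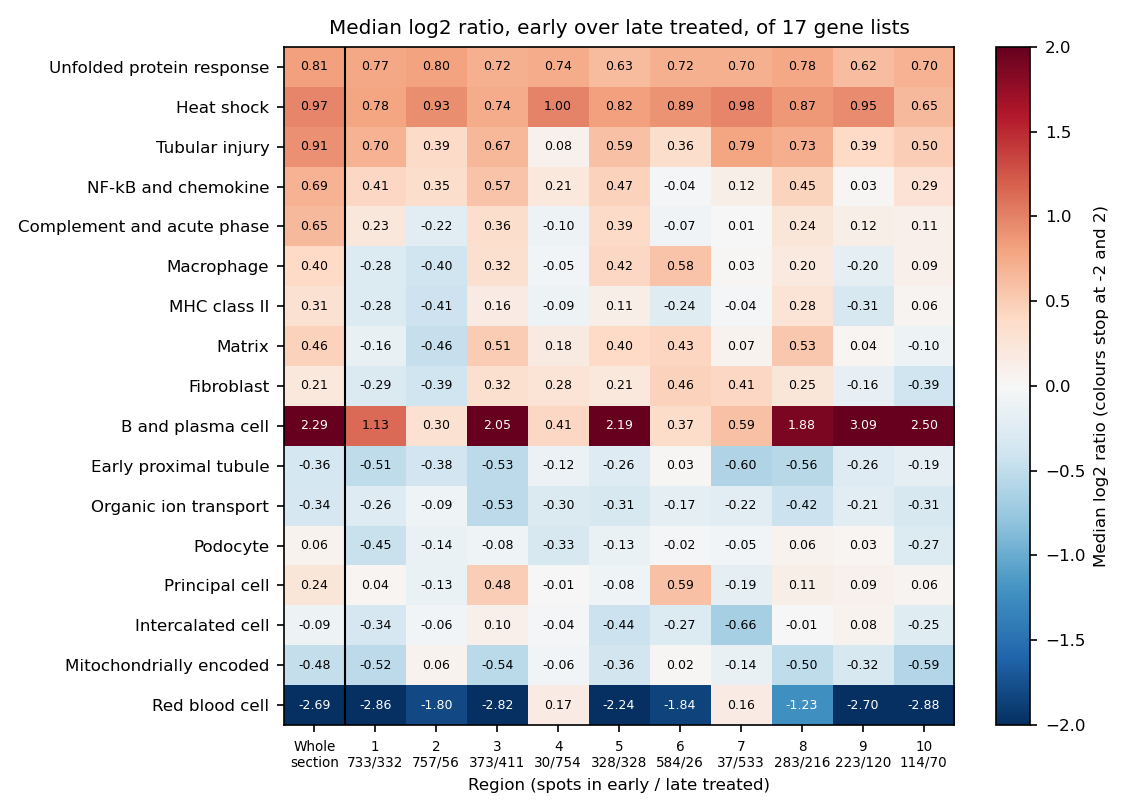
Median log2 ratio of early over late treated for 17 gene lists (rows) over the whole section and in each of 10 regions (columns, with the number of early and late treated spots), on a colour scale from blue (lower in early) to red (higher in early). The unfolded protein response and heat shock rows are positive in every region, while the macrophage, matrix and class II rows hold both signs.

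Macrophage, matrix and complement lists were smaller within regions than over whole sections. The macrophage median went from 0.40 to 0.10 and the matrix median from 0.46 to 0.15. In the injury-led region 1 the macrophage median was -0.28 and the matrix median -0.16, so these genes were somewhat lower there in the early treated section, while in region 8 they were 0.20 and 0.53. The early proximal tubule median was -0.30 within regions, near its -0.36 over whole sections, but it was not uniform. It ran from -0.60 in region 7 to 0.03 in region 6. In region 4, whose leading genes include Slc6a19 and Gatm, it was -0.12. Of the 61 genes higher in the early treated library, 36 (59.0%) were higher in all 10 regions, against 6.83% of all 6474 genes. Of the 21 lower genes, 16 (76.2%) were lower in all 10, against 8.70%. The 61 and 21 genes were picked on the summed UMIs of these same spots, so shares above those of all genes were built in. The regions share their libraries, so this describes how widely a difference was spread and is no replicate of it. With ratios averaged over regions, 30 genes were at least 2-fold higher, 29 of them among the 61, and 24 lower. All 15 genes named for the largest ratios on each side, likewise picked on the same spots, stayed past 1.5-fold in this average.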

How the data were processed

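The authors deposited UMI counts per gene and spot for each of 6 Visium sections; per the file headers they were made with Space Ranger 1.3.1 (1.2.1 for 5m AS and WT), and the submitters' processing notes name the build mm10. The count files were used as deposited: UMIs were summed over all spots of a library and scaled with TMM factors from all 6 libraries (edgeR 4.0.16 in R 4.3.3, used for scaling only). Genes were compared at 20 scaled CPM in 1 of the 2 treated libraries and 2-fold, lists at 5 scaled CPM and 1.5-fold. Ratios have exact intervals for the ratio of 2 counts at 95% confidence. Shares and pairs of spots were computed after thinning to 5000 UMIs. Regions came from Leiden clustering (scanpy 1.11.5, leidenalg 0.10.2) of the spots that held 500 UMIs or more (2000 variable genes, 30 components, 15 neighbours, resolution 0.8), without a doublet caller; region log2 ratios carry a pseudocount of 1. Code was tested on simulated counts.

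Genes are named by rule: 15 on each side with the largest ratios, at 20 scaled CPM and 1.5-fold under 3 weightings, without predicted, ribosomal protein, mitochondrial, haemoglobin, immunoglobulin and sex-linked genes, and up to 4 members with the largest ratios from each list; Col4a5, Havcr1, Lcn2 and Slpi were always included. Other list members were chosen after their values were seen. Members and lists were chosen with earlier results of these data known. Gene positions are from GENCODE vM21 (GRCm38). Some list members are not reported here. No test was made, as each group has 1 library.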

Additional observations from a re-analysis of the deposited data

How the results depend on the processing

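No paired analysis was possible because each group has 1 library and no replicate. The counts of 61 higher and 21 lower genes became 63 and 21 with plain CPM, 58 and 21 with median-of-ratios size factors, 70 and 22 with every spot weighted equally, 56 and 21 in spots with at least 5000 UMIs, and 57 and 20 after thinning. Averaged over regions, 30 genes were higher, or 32 at a resolution of 0.4. Leaving out, for each gene, the 5% of spots with most of it gave 41 lower genes, which included the 21. A floor of 5 scaled CPM gave 104 and 39, a floor of 50 gave 33 and 13, and no floor other than 3 counts gave 992 and 795; at 1.5-fold the counts were 217 and 120. Without regions 1 and 2, an alternative chosen after seeing the data, they were 51 and 22. Requiring the interval to lie past 2-fold left 43 and 18.

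Among named genes past 1.5-fold and lists with a median of at least 0.3 either way, values turned sign only with ratios averaged over regions: Fga at -0.081 and, at a resolution of 0.4, -0.27, Slc22a7 at 0.14, the complement median at -0.0061, and the class II median at -0.060 and -0.11. The cause was not tested. Among the log2 ratios of named genes and medians of lists, 1451 stayed within the gene's interval or within 0.1 of the list's median, 676 moved by more and these 6 turned sign, leaving aside the alternative without regions 1 and 2, under which 93 stayed and 145 moved. Depth limits genes with few UMIs per spot, for which shares of spots say little. The design cannot separate treatment timing from mouse, section or slide.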

Other observations

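Genes of the circadian clock, a list added after seeing the data, lay on both sides. Beside each count of list members here stand 3.7% higher and 2.02% lower of the 10858 genes at the floor of 5 scaled CPM. Of 14 measured of 16, 5 were at least 1.5-fold higher in the early treated library and 1 lower, with a median log2 ratio of -0.01. Per1 and Per2, repressors in the clock's main loop, stood at 36.2 in the early and 16.2 in the late treated library and at 30.9 against 14.6. Cry1, their partner, stood at 8.14 against 1.997 (4.08-fold, 3.36 to 4.98). Nr1d1, which encodes REV-ERB alpha, stood at 24.3 against 51.8 (2.13-fold, 2.003 to 2.27 higher in the late treated library). Dbp and Per3 were within 1.5-fold. The time of day at which kidneys were taken is not given in the sources used here. Genes induced by glucocorticoids, also added after seeing the data, were higher in 5 of 8 measured of 9 and lower in 1, with a median of 0.97. Tsc22d3, which encodes GILZ, stood at 84.95 against 41.4 (2.05-fold, 1.96 to 2.15), Cebpd at 40.3 against 17.1 (2.35-fold, 2.19 to 2.52) and Sgk1 at 118 against 63.3 (1.87-fold, 1.80 to 1.94), while Dusp1 was 1.68-fold (1.59 to 1.77) higher in the late treated library. Per1 belongs to both lists.

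Immediate early genes were split, with 5 of 16 measured of 17 at least 1.5-fold higher in the early treated library and 4 lower. Atf3 stood at 8.76 in the early and 2.98 in the late treated library (2.94-fold, 2.49 to 3.48), with a log2 ratio of 1.56 over whole sections and 0.67 within regions, and Myc at 11.3 against 4.69 (2.41-fold, 2.10 to 2.77), while Egr1 stood at 17.9 against 34.9 (1.95-fold, 1.81 to 2.10 higher in the late treated library) and Fos at 3.75 against 8.82. Of 15 measured cell cycle genes, 5 were at least 1.5-fold higher in the early treated library and none lower, and the list's median was 0.40 over whole sections and 0.16 within regions. Cdk1 was among them at 7.84 against 4.56 (1.72-fold, 1.48 to 1.99). Pck1, which commits carbon to gluconeogenesis, stood at 788 against 433 (1.82-fold, 1.79 to 1.85) and was the only 1 of 16 gluconeogenesis genes past 1.5-fold. Bcl6, a transcriptional repressor, stood at 11.8 against 39.3 (3.32-fold, 3.05 to 3.62 higher in the late treated library), beside 49.9 in 5m AS, 67.9 in 2m AS, 30.8 in WT and 9.02 in the mixed library, and was lower in the early treated section in all 10 regions.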
